A study of Homo sapiens with 36 samples.

Results

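K562 cells kept in 5% oxygen were compared between 24 h and 3 d, with 3 libraries at each time, 6 of the 36 libraries of the series. K562, an established line from a human erythroleukemia, makes globins of the embryonic and fetal kind. The same step in 21% oxygen, again 3 libraries against 3, was set beside it, and ranges given for 21% oxygen cover these 6 libraries. Of the 21950 genes in the table, the 10614 with a mean of at least 1 FPKM over the 6 libraries of 5% oxygen were tested. FPKM is a fragment count scaled for gene length and library size.

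The series followed K562 at 3 oxygen levels (21%, 5% and 1%) and 4 times (6 h, 24 h, 3 d and 6 d), with 3 replicates of each. Cells were grown in DMEM in 6-well plates, each oxygen level in an incubator of its own, and were not otherwise treated in any group. Cultures were passaged at 3 d. No other genotype, clone or agent is named in the labels, which do not say whether replicates were separate cultures, so p-values reflect the variation of these libraries alone, which may be technical. Time in low oxygen, age of the medium and cell density cannot be told apart within an oxygen level. The step in 21% oxygen includes the age of the medium and the cell density, but not the low oxygen or its incubator.

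Cells sense oxygen through prolyl hydroxylases that mark the alpha subunits of the hypoxia-inducible factors (HIF) for destruction by the VHL ubiquitin ligase. When oxygen falls, HIF accumulates, binds short motifs, ACGTG or GCGTG, near its targets and raises genes of glucose uptake, glycolysis, angiogenesis and pH control. Sterol-regulated transcription, growth control and the cell cycle also depend on nutrients and oxygen, and K562 cells are widely used to follow globin and heme genes.

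Erythroleukemia markers were present at both times. All 10 markers passed the filter, and 9 of them had at least 1 FPKM in every library of 5% oxygen, the exception being LYL1. Of 19 myeloid and lymphoid markers, 13 stayed under 1 FPKM in all 6 libraries, as did 8 of 13 epithelial and stromal markers and 9 of 10 neural and liver markers. LYZ, CD33, CD3D and PTPRC were the immune markers above 1 FPKM throughout, and EPCAM and COL1A2 the epithelial and stromal ones.

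The promoters of 4 of the hypoxia-responsive genes with large rises are printed here because the data turn on their joint rise. Each runs from 250 bases before to 50 after the RefSeq start (GRCh38.p14), 5′ to 3′ on the gene's strand, and capitals mark ACGTG or GCGTG or their reverse complements, CACGT and CACGC. The windows lie at chr9:35673678-35673977 (plus strand, CA9), chr19:8363905-8364204 (plus, ANGPTL4), chr3:4979187-4979486 (plus, BHLHE40) and chr17:28576846-28577145 (minus, ALDOC).
CA9: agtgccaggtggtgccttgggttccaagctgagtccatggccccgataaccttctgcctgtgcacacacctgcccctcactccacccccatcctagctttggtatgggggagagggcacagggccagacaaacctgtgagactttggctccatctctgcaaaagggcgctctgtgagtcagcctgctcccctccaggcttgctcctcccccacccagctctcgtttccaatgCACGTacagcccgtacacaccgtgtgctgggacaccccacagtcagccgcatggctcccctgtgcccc
ANGPTL4: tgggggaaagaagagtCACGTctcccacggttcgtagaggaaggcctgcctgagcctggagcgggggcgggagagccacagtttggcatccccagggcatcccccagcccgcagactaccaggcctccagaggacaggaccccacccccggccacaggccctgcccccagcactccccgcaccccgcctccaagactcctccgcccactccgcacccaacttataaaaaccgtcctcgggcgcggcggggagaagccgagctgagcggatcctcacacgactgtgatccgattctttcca
BHLHE40: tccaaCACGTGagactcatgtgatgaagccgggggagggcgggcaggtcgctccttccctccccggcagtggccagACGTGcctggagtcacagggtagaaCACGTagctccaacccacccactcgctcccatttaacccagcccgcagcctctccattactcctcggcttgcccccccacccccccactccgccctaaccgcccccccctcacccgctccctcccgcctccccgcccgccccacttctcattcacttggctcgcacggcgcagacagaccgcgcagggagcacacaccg
ALDOC: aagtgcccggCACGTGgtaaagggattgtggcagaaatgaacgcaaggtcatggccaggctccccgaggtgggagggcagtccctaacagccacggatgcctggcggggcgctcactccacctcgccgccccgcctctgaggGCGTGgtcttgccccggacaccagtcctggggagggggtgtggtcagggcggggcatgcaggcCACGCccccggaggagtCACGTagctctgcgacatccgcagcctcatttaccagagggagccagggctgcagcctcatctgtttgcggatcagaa

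The CA9 window held 1 match, near the start, and that of ANGPTL4 held 1 as well. BHLHE40 had 4 and ALDOC 5, where overlapping matches on both strands, as in CACGTG, count separately. Over the lists, 22 of the 25 other hypoxia-induced genes with a window (88%) and 20 of 21 glycolysis genes (95.2%) held ACGTG or GCGTG on either strand. Among all 8538 tested genes with a window the share was 71.3%, and among all 35116 windows it was 48.4%. For ACGTG alone the shares were 64%, 61.9%, 33.1% and 21.4%. A gene was counted if any of its windows matched, whereas the 35116 windows were counted singly. The shares of genes and of windows are therefore not alike. Of the 12 genes with the largest rises by the naming rule, 11 had a window, and 8 of these (72.7%) held either motif and 36.4% ACGTG, shares near those of all tested genes. These are matches of letters, not measured binding.

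The libraries differed in depth and background. Relative depth, a rough estimate from the step size of low FPKM values, was 0.816 to 1.2 in 5% oxygen and 0.294 to 1.29 in 21% oxygen, where replicate 3 of 24 h was the shallowest. Of 375 olfactory receptor genes, used as a measure of background, 20.8% to 67.5% were above 0 at 24 h and 47.5% to 55.7% at 3 d in 5% oxygen, against 12.8% to 19.5% and 33.3% to 38.4% in 21%. The correlation of each library's deviation with GC content was -0.235 to -0.0796 at 24 h and 0.0628 to 0.183 at 3 d in 5% oxygen. A correction for GC content and length called 4395 genes in the 5% step, close to the 4537 without it. The part of depth and background in the results was not tested beyond these values.

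Between 24 h and 3 d in 5% oxygen 4537 genes passed (limma, adjusted p under 0.05, 42.7% of those tested). Of these, 2013 rose (19%) and 2524 fell (23.8%). Changes of at least 2-fold on the log2(FPKM + 1) scale, which understates the change of low genes, were mostly rises, 646 (6.09%) against 201 (1.89%), and those of at least 4-fold were 134 (1.26%) against 10 (0.0942%). For 5847 genes (55.1%) the 3 libraries of 3 d did not overlap with those of 24 h. In 21% oxygen 1860 genes passed (17.5%), 1030 upward (9.7%) and 830 downward (7.82%), of which 234 rose (2.2%) and 54 fell (0.509%) by at least 2-fold. That number depended on single libraries: it was 1237 without replicate 2 and 1161 without replicate 3 of 24 h, and 580, 707 and 873 without replicates 1, 2 and 3 of 3 d. The step itself differed between the oxygen levels for 2598 genes (24.5%), with 1157 higher (10.9%) and 1441 lower (13.6%) in 5% than in 21%.

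Some of the genes moved the same way at both oxygen levels. Of the 2013 that rose in 5% oxygen, 456 also rose in 21%, 22.7% of the first list and 44.3% of the second, and 38 fell. Of the 2524 that fell, 379 also fell in 21%, 15% and 45.7% of the lists, and 80 rose. Across the 10614 genes, which are not independent replicates, the steps had a correlation of 0.258. The median step over all genes was -0.07 on the log2 scale in 5% oxygen and 0.01 in 21%. Rescaling each library to the same total (TPM) moved these medians to -0.28 and 0.33, where 1191 genes rose and 3457 fell in 5% oxygen, 2746 rose and 136 fell in 21%, and the difference was higher for 408 and lower for 4790. Where the printed median of a group turned sign under TPM, that is said beside it. List counts under TPM are to be read beside these TPM counts of all 10614 genes. Medians near 0 in 21% oxygen could also turn under quantile normalization.

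**Figure D1:**
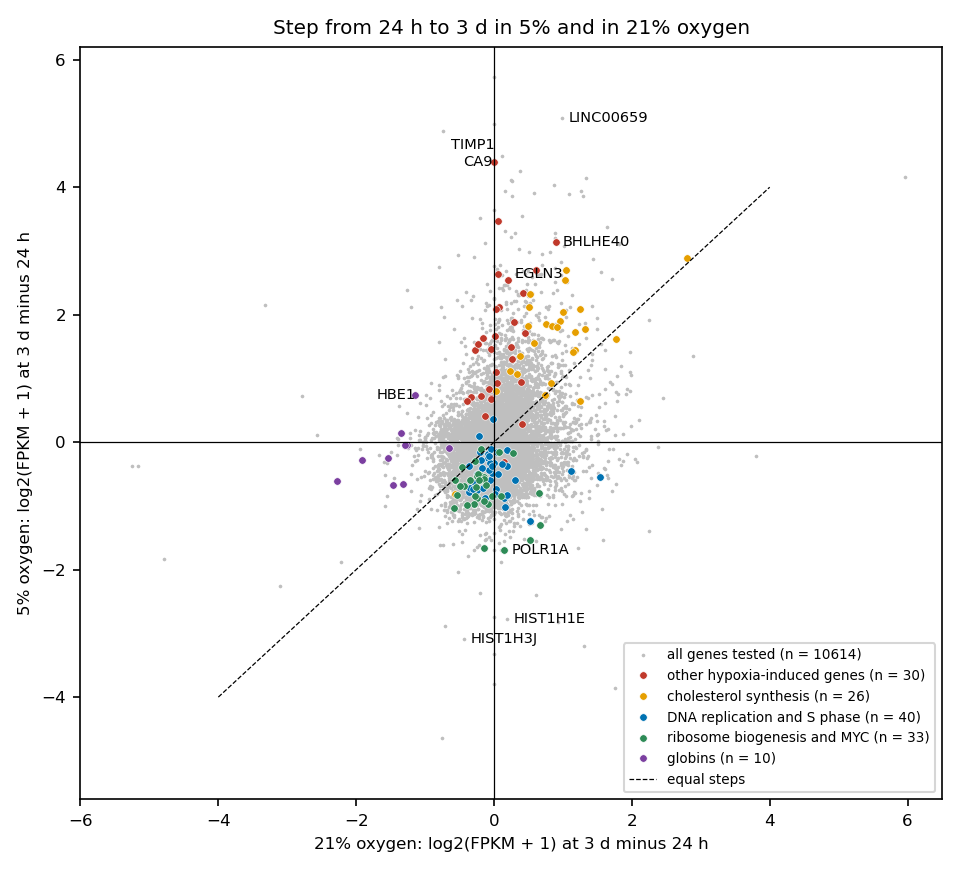
Step from 24 h to 3 d, as the difference of mean log2(FPKM + 1), in 21% oxygen (horizontal) and 5% oxygen (vertical) for 10614 genes; colours mark 5 gene lists and the dashed line equal steps. Hypoxia-induced genes lie high in 5% oxygen near 0 in 21%, cholesterol genes are raised on both axes, and the globins lie to the left.

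Nearly all listed genes of the hypoxic response rose in 5% oxygen. Of 30 tested members of the list of other hypoxia-induced genes, 28 rose, where 19% of all genes tested did, 0 fell and 2 (KDM4C and STC2) did not pass. Their median was 1.48 on the log2 scale. In 21% oxygen 4 rose, against 9.7% of all genes, with a median of 0.04. The step was higher in 5% oxygen for 26, against 10.9% of all genes, with a median difference of 1.38 (0.88 under TPM, with 18 higher and 1 lower). The 5 members CA12, PLOD2, KDM4B, COX4I2 and RORA were below the filter.

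CA9, a membrane-bound carbonic anhydrase that handles acid load, was listed at 0 in 2 libraries and at 0.176 FPKM in the other at 24 h. At 3 d it stood at 20.1, 21.4 and 22.3 FPKM, and in all 6 libraries of 21% oxygen it was listed at 0. Its log2 difference was 4.40 (SE 0.116, limma adjusted p 2.47e-10), and it gives no fold because of the zeros. ANGPTL4, a secreted inhibitor of lipoprotein lipase, went from 0.429, 0.148 and 0.0938 FPKM to 10.7, 12.5 and 14.3. The groups did not overlap, and its 21% libraries stayed between 0 and 0.359 FPKM.

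BHLHE40, a transcriptional repressor, had 21.3, 20.0 and 19.9 FPKM at 24 h and 180.9, 176.8 and 208.1 at 3 d, 9.25-fold in the means. It rose in 21% oxygen too, by 0.90 on the log2 scale (adjusted p 0.000116), but less, with a difference of 2.24 (SE 0.122, adjusted p 3.08e-07). The collagen prolyl hydroxylases P4HA1 and P4HA2 rose by 2.34 and 2.70. P4HA1 stood at 47.7, 49.6 and 43.8 FPKM before and 238.2, 239.0 and 246.7 after, with no overlap. In 21% oxygen P4HA1 and P4HA2 rose by 0.42 and 0.61 (adjusted p 0.00821 and 0.0061).

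PDK1, the kinase that inhibits pyruvate dehydrogenase, was at 6.89, 6.96 and 6.87 FPKM at 24 h and at 23.7, 25.3 and 25.7 at 3 d (difference 1.71, SE 0.222, adjusted p 7.24e-05). BNIP3, a mitophagy receptor, went from 89.98, 86.95 and 84.53 FPKM to 246.5, 268.7 and 247.6. VEGFA, the angiogenic growth factor, went from 3.52, 3.32 and 2.88 to 10.4, 11.5 and 9.62. All 3 genes had separate groups in 5% oxygen, and their steps in 21% oxygen were 0.46, -0.23 and -0.27, of which none passed (adjusted p 0.171, 0.0975 and 0.129).

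Among the oxygen sensors themselves, 4 of 9 tested genes rose and 1 fell, where 19% and 23.8% of all genes did. EGLN3, a prolyl hydroxylase that is itself a HIF target, had 14.9, 12.5 and 13.1 FPKM at 24 h and 80.8, 84.1 and 83.8 at 3 d, while 21% oxygen held it between 5.04 and 7.95. Its rise of 2.54 (SE 0.117, adjusted p 1.29e-08) was 6.15-fold in the means. EPAS1, which encodes HIF-2 alpha, went from 1.61, 1.99 and 2.48 FPKM to 7.87, 7.64 and 8.53. HIF1A, the HIF-1 alpha gene, had 11.9, 13.4 and 11.2 FPKM and then 11.97, 10.6 and 9.62, which overlap (difference -0.17, adjusted p 0.511). VHL fell from 8.18, 7.53 and 7.68 FPKM to 5.21, 4.94 and 3.94 (-0.63, adjusted p 0.00164).

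Glycolysis and glucose uptake moved with them. Of 22 tested genes 19 rose, 1 fell and 2 (HK1 and PFKM) did not pass, where 19% of all genes rose and 23.8% fell. The median was 0.80 against -0.01 in 21% oxygen (0.37 there under TPM). The step was higher in 5% oxygen for 17, against 10.9% of all genes (11 higher and 2 lower under TPM). The summed level of the 22 genes was 11313 to 12490 FPKM at 24 h and 22616 to 23975 at 3 d, against 12681 to 16188 and 11370 to 12273 in 21%.

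SLC2A3, a glucose transporter of high affinity, stood at 20.3, 17.7 and 17.0 FPKM at 24 h and 109.1, 109.5 and 140.7 at 3 d. The more widely expressed SLC2A1 went from 53.5, 52.3 and 47.3 to 86.0, 89.0 and 97.8. ALDOC, an aldolase, rose from 39.7, 39.7 and 41.0 to 324.1, 351.3 and 365.9 FPKM, the largest fold (8.65) of the glycolytic genes named here. PFKFB4, which makes an activator of phosphofructokinase, and the enolase ENO2 rose by 2.19 and 2.13. ALDOC and SLC2A3 also rose in 21% oxygen, by 1.02 and 0.68 (adjusted p 0.000146 and 0.00399), less than in 5%. SLC2A1, PFKFB4 and ENO2 did not pass in 21% oxygen.

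LDHA, which turns pyruvate into lactate, was among the most abundant of the group, at 1363, 1367 and 1268 FPKM at 24 h and 3642, 3692 and 3663 at 3 d. The rise was 1.46 (SE 0.106, adjusted p 5.69e-07), and in 21% oxygen all libraries lay between 1046 and 1397. PGK1, phosphoglycerate kinase, rose from 418.4, 424.5 and 382.6 to 1047, 1109 and 1109 FPKM. The gene that fell was LDHB, the other lactate dehydrogenase subunit, by 0.44 (adjusted p 0.00994), named after its value was seen. TXNIP, which restrains glucose uptake, rose from 49.6, 49.7 and 42.4 FPKM to 133.2, 134.3 and 135.7. Of 13 tested genes of the TXNIP, MondoA and MYC network 8 rose and 1 fell (4 and 1 under TPM). Among all genes tested 19% rose and 23.8% fell.

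**Figure D2:**
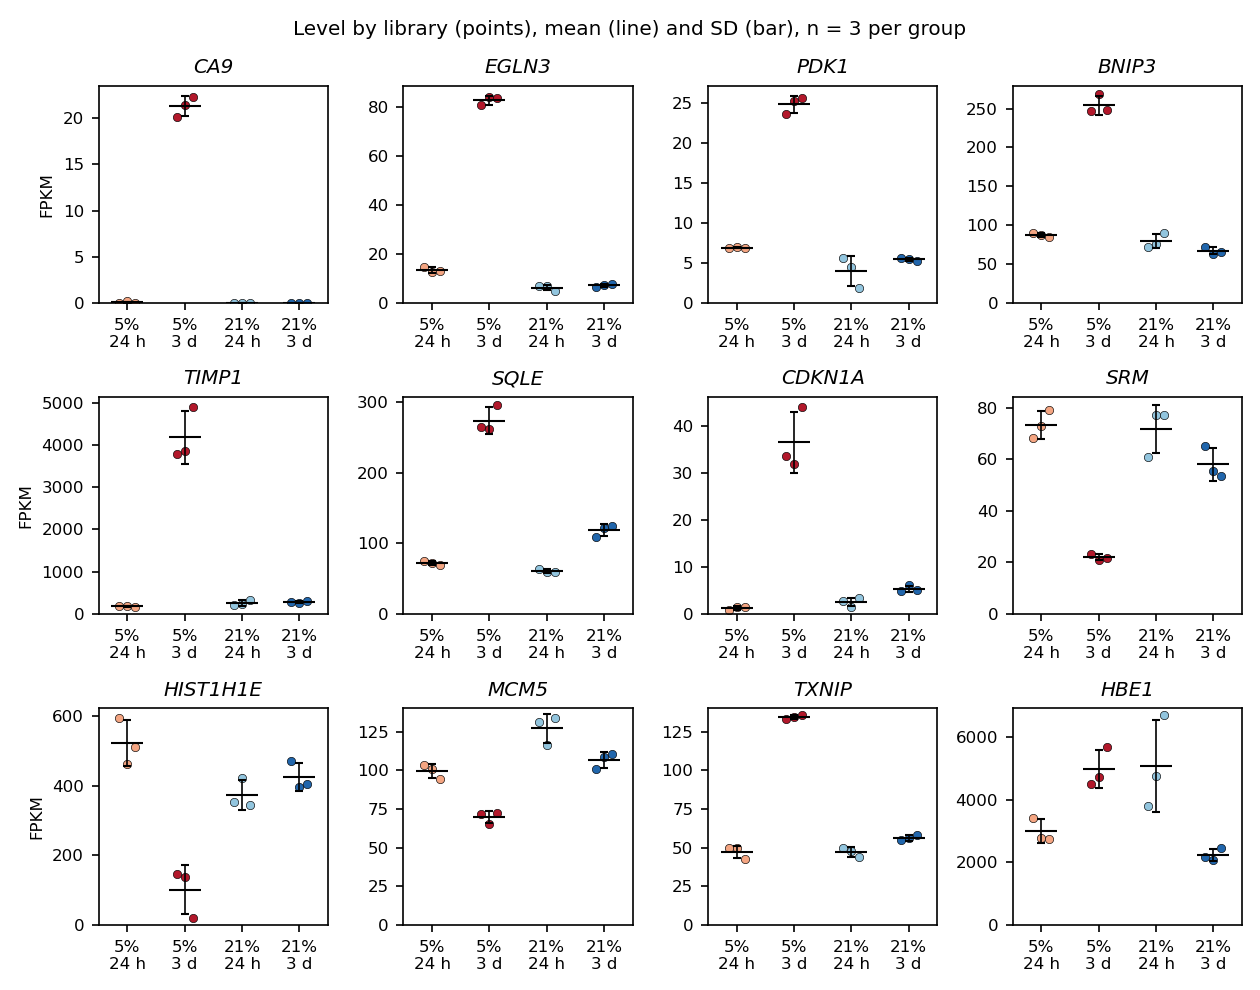
FPKM of 12 genes in each library (points) of 5% and 21% oxygen at 24 h and 3 d, with the mean (line) and SD (bar) of 3 libraries. The 3 d libraries of 5% oxygen stand apart for 11 of the genes, while HBE1 at 3 d in 5% oxygen overlaps the 24 h libraries of 21%.

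Cholesterol synthesis rose at both oxygen levels, further in 5%. Of 26 genes 25 rose in 5% oxygen (median 1.76) and 22 in 21% (median 0.88), where 19% and 9.7% of all genes did. The difference was higher in 5% for 16, against 10.9% of all genes (8 higher and 4 lower under TPM). HMGCS1, which makes the precursor of mevalonate, went from 6.98, 10.7 and 10.01 FPKM to 54.9, 62.1 and 79.2 in 5% oxygen. In 21% its libraries went from 8.09, 5.83 and 7.29 to 15.5, 16.9 and 14.2, so that the groups separated there too, by less (difference of steps 1.66, SE 0.241, adjusted p 0.000611). MSMO1, DHCR7, SQLE and IDI1, enzymes of the later pathway, rose by 2.55, 2.04, 1.90 and 1.85. PMVK, phosphomevalonate kinase, was the 1 gene of the list that fell, by 0.81, and is named after its value was seen.

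Fatty acid synthesis genes mostly rose at both levels. Of 15 tested genes 9 rose and 1 fell (ACACA) in 5% oxygen, where 19% and 23.8% of all genes did. In 21% oxygen 9 rose, against 9.7% of all genes. The list medians were 0.57 in 5% and 0.68 in 21%. The test of the difference was passed by 0 genes upward and 3 downward, where 10.9% and 13.6% of all genes did so. Its median of 0.08 turns to -0.45 under TPM. SCD, the main desaturase, went from 87.7, 90.8 and 80.4 FPKM to 257.3, 253.0 and 296.9 in 5% oxygen and from 65.6, 61.9 and 53.2 to 152.9, 154.0 and 151.4 in 21%. Its difference of steps was 0.29 (SE 0.137, adjusted p 0.13), and that of FADS1, another desaturase, was -0.33 (SE 0.176, adjusted p 0.181). ACLY, which makes cytosolic acetyl-CoA, rose by 1.04 and 0.87. PLIN2, which coats lipid droplets, rose by 1.65 in 5% oxygen and by 0.49 in 21% (adjusted p 0.0127). CPT1A, the carnitine transferase of fatty acid oxidation, fell by 0.86 in 5% oxygen and rose by 0.49 in 21%.

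**Figure D3:**
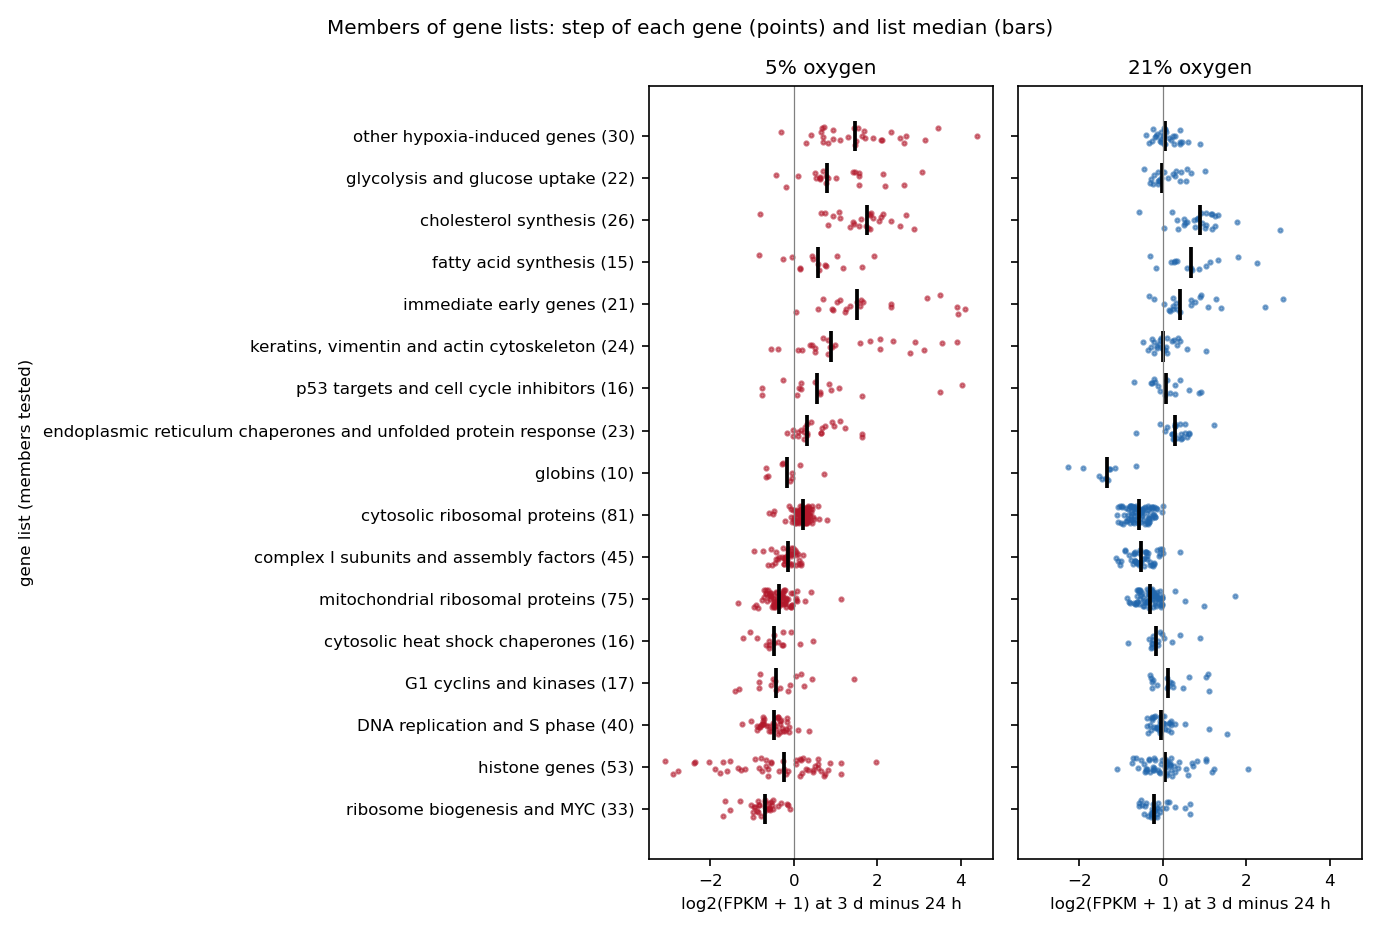
Step from 24 h to 3 d of each tested member (points) of 17 gene lists and the list median (bars), in 5% oxygen (left) and 21% oxygen (right), as differences of log2(FPKM + 1). Hypoxia, glycolysis and immediate early lists lie further right in 5% oxygen, the replication and ribosome biogenesis lists further left, and the globins lie further left in 21%.

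The largest rises outside these pathways were of secreted proteins and a long noncoding RNA. LINC00659 had 2.13, 0.782 and 2.17 FPKM at 24 h and 93.2, 74.1 and 96.4 at 3 d, a log2 difference of 5.08 (SE 0.277, adjusted p 4.7e-08). TIMP1, an inhibitor of matrix metalloproteinases, went from 197.9, 182.4 and 173.2 FPKM to 3782, 3846 and 4894, or 22.6-fold in the means. Its libraries in 21% oxygen all lay between 214.0 and 329.7 FPKM.

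PAEP, a secreted lipocalin, and C19orf77 rose by 3.95 and 4.10, from at most 1.14 and 0.338 FPKM at 24 h. TIMP1, LINC00659, PAEP and C19orf77 had separate groups in 5% oxygen, and of these LINC00659 alone passed in 21% (0.98, adjusted p 0.0319). CD52, a surface glycopeptide of leukocytes, went from 25.4, 14.1 and 13.3 FPKM to 254.7, 301.6 and 411.1. CD3D, a subunit of the T cell receptor complex, went from 65.4, 56.8 and 49.9 to 296.2, 360.7 and 440.6 and made up most of the immune marker sum at 3 d in 5% oxygen. That sum was 106 to 119 FPKM at 24 h and 367 to 516 at 3 d in 5% oxygen, and 108 to 149 and 177 to 190 in 21%. CD52 and CD3D also rose in 21% oxygen, by 1.33 and 0.64 (adjusted p 0.0103 and 0.0344), less than in 5%. In bulk libraries more cells of a kind and more RNA per cell cannot be told apart.

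Keratin and cytoskeletal genes mostly rose. Of 24 tested 19 rose and 2 fell (TUBA1B and TUBB), where 19% and 23.8% of all genes did. The median was 0.88 against -0.01 in 21% oxygen (0.37 there under TPM). The step was higher in 5% for 15, against 10.9% of all genes (12 higher and 3 lower under TPM). KRT8, a keratin of simple epithelia, went from 226.2, 221.6 and 201.5 FPKM to 2490, 2483 and 2607. Its partner KRT18 went from 383.8, 376.0 and 338.2 to 2368, 2429 and 2751. Both have many near-identical pseudogenes, so their levels are uncertain. The tubulin gene TUBA1A rose by 3.91, from 1.54, 1.97 and 1.47 FPKM to 37.7, 39.0 and 40.3. The sum of the 13 epithelial and stromal markers, which do not include these keratins, was 118 to 123 FPKM at 24 h and 74.4 to 84.5 at 3 d. KRT8 and TUBA1A also rose in 21% oxygen, by 0.41 and 0.58 (adjusted p 0.023 and 0.00872), and KRT18 did not pass there.

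Immediate early genes, which respond within minutes to growth factors and stress, mostly rose. Of 21 tested 16 rose and 0 fell, where 19% and 23.8% of all genes did. The median was 1.51 against 0.42 in 21% oxygen, where 9 rose (9.7% of all genes did). NR4A1, an orphan nuclear receptor, was at 0.0339, 0.0332 and 0 FPKM at 24 h and at 14.9, 14.6 and 21.1 at 3 d. FOS went from 0.406, 0.437 and 0.452 FPKM to 19.6, 21.3 and 21.8, and EGR1 from 4.63, 3.42 and 3.86 to 60.2, 58.1 and 110.5. FOS and EGR1 also rose in 21% oxygen, by 1.27 and 1.09, less than in 5% (difference adjusted p 2.68e-06 and 6.15e-05). IER3 and KLF10 rose by 3.20 and 2.33, and in 21% oxygen by 0.88 and 0.42 (adjusted p 0.00165 and 0.0248). IER2 varied between libraries in 5% oxygen, with 8.77, 31.2 and 52.0 FPKM at 24 h and 73.3, 33.2 and 108.1 at 3 d. These groups overlapped (1.35, adjusted p 0.072). In 21% oxygen IER2 rose by 2.89 (adjusted p 0.00786), more than FOS and EGR1 did there. Its difference of steps did not pass (-1.54, adjusted p 0.171).

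Stress genes of the endoplasmic reticulum and of the ATF4 and CHOP response rose in part. Of 23 chaperone and unfolded protein genes 13 rose (8 under TPM) and 0 fell, where 19% and 23.8% of all genes did. The medians were 0.32 in 5% and 0.30 in 21% oxygen. The difference was higher in 5% for 6 of them, against 10.9% of all genes. Under TPM 2 were higher and 9 lower, where 408 and 4790 of all 10614 genes were. The median difference turned there from 0.14 to -0.46, and that of all genes was -0.59. HSPA5, the main chaperone of that compartment, went from 144.7, 146.2 and 133.1 FPKM to 399.5, 412.4 and 516.0, and HERPUD1, a factor of protein disposal there, rose by 1.63. HSPA5 rose in 21% oxygen too, by 0.35 (adjusted p 0.0392), and HERPUD1 did not pass there.

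Of 23 ATF4 and CHOP genes 12 rose and 2 fell (ATF5 and PSAT1), 7 and 3 under TPM. The shares of all genes tested were 19% and 23.8%. DDIT3, which encodes CHOP, went from 96.4, 77.1 and 85.2 FPKM to 338.8, 371.4 and 419.8 in 5% oxygen and fell by 0.78 in 21%. GDF15, a stress-induced cytokine, rose from 32.1, 27.9 and 30.9 to 242.9, 244.9 and 251.3. PPP1R15A and TRIB3 rose by 1.77 and 1.27. ASNS, asparagine synthetase and a usual ATF4 target, stood at 227.6, 221.3 and 217.6 FPKM and then 234.8, 237.4 and 236.0, a difference of 0.09 (SE 0.086, adjusted p 0.439). In 21% oxygen GDF15 and TRIB3 rose by 0.51 and 0.42 (adjusted p 0.0299 and 0.0482), and PPP1R15A did not pass.

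Cytosolic and mitochondrial chaperones mostly fell. Of 16 listed 10 fell, against 23.8% of all genes, and 1 rose (HSPB1), with a median of -0.48 against -0.17 in 21% oxygen (0.19 there under TPM). HSPD1, the chaperonin of mitochondria, fell from 607.3, 591.2 and 528.2 FPKM to 311.8, 301.7 and 321.0, and its partner HSPE1 fell by 1.06. HSP90AA1, an inducible cytosolic chaperone, fell by 0.48.

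Among p53 targets and cell cycle inhibitors rises outnumbered falls. Of 16 tested 8 rose, 2 fell (MDM2 and TP53I3) and 6 did not pass, where 19% of all genes rose and 23.8% fell. The median was 0.56 against 0.07 in 21% oxygen (the median difference of 0.34 turns to -0.20 under TPM). CDKN1A, an inhibitor of cyclin-dependent kinases, had 0.878, 1.52 and 1.43 FPKM at 24 h and 33.6, 31.9 and 44.0 at 3 d, 28.6-fold in the means. BTG2, an antiproliferative gene, went from 5.56, 3.90 and 5.21 to 62.6, 58.0 and 78.1. CDKN1A rose in 21% oxygen by 0.86 (adjusted p 0.0148), and BTG2 did not pass there (-0.21, adjusted p 0.405).

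Of 17 G1 cyclins and kinases 8 fell, where 23.8% of all genes did, and 6 did not pass. The 3 that rose (CCND1, CCND3 and CKS1B) were a share near the 19% of all genes. The median was -0.42 against 0.13 in 21% oxygen. SKP2, which targets the inhibitor CDKN1B for destruction, fell from 91.8, 90.2 and 73.6 FPKM to 31.1, 34.7 and 28.95. CDK6 and CDK4, the G1 kinases, fell by 1.31 and 0.80. CCND2, a D cyclin, fell by 0.84 and rose in 21% oxygen by 0.62, and CCND1 rose by 1.44 and 1.04.

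DNA replication genes fell together. Of 40 listed 30 fell and 1 rose (TK1), where 23.8% and 19% of all genes did. The median was -0.47 against -0.05 in 21% oxygen, where 4 fell (7.82% of all genes did) and 2 rose. Under TPM the 21% median turned to 0.33, with 9 higher and 0 lower. Among all 10614 genes that median was 0.33 too, with 2746 higher and 136 lower. The step was lower in 5% oxygen for 17, against 13.6% of all genes. PCNA, the sliding clamp, fell from 220.1, 212.7 and 188.7 FPKM to 127.4, 123.8 and 110.6. MCM5, a subunit of the replicative helicase, fell from 103.5, 101.0 and 94.5 to 71.5, 65.5 and 72.6 and MCM4 by 0.74. RFC3, of the clamp loader, and GINS1 both fell by 0.88. For MCM5 the difference between the oxygen levels did not pass (-0.26, SE 0.119, adjusted p 0.131).

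Mitotic genes mostly did not pass. Of 32 genes of G2 phase and mitosis 8 fell and 3 rose, and 21 did not pass, so that the share of falls lay near that of all genes. Under TPM 15 fell and 1 rose, where 3457 and 1191 of all 10614 genes did. CENPF, a kinetochore protein, fell by 0.90 and CDC25C, the phosphatase that opens mitosis, rose by 0.83. CCNB1, the mitotic cyclin, had 195.6, 203.9 and 182.0 FPKM and then 179.7, 167.7 and 189.8, which overlap (-0.11, adjusted p 0.452).

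Histone genes were frequent among the largest falls. Of 53 tested 22 fell, where 23.8% of all genes did, and 9 rose, a share near the 19% of all genes. By size, 8 of the 12 largest falls picked by the naming rule were histone genes. Replication-dependent histone mRNAs lack a poly(A) tail, and the libraries were poly(A)-selected. HIST1H1E, a linker histone, went from 594.7, 463.7 and 510.2 FPKM to 147.5, 136.8 and 20.6. HIST1H4I went from 143.3, 101.4 and 128.9 to 15.9, 20.0 and 12.4 and HIST1H3J from 142.8, 112.8 and 135.7 to 24.8, 30.8 and 3.39.

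Replicate 3 of 3 d in 5% oxygen was far below the others for HIST1H1E, HIST1H3J and HIST1H1B. HIST1H1B had 73.4, 61.0 and 61.2 FPKM at 24 h and 20.8, 21.8 and 2.95 at 3 d. With all libraries HIST1H1E, HIST1H3J and HIST1H1B fell by 2.77, 3.09 and 2.40. Without that library they fell by 1.87, 2.19 and 1.57, and 20 histone genes fell and 9 rose. HIST1H1D, another linker histone, fell by 1.54 with even values in the 3 libraries. HIST1H1C, whose mRNA can be polyadenylated, and HIST2H2BE rose, by 1.14 and 1.13. HIST1H1C stood at 856.8, 739.8 and 704.6 FPKM and then 1676, 1705 and 1674.

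Ribosome biogenesis genes fell together. Of 33 genes 28 fell and 0 rose, where 23.8% and 19% of all genes did. The median was -0.69 against -0.21 in 21% oxygen, where 9 fell (7.82% of all genes did). Under TPM the 21% median turned to 0.16, with 5 higher and 0 lower. Among all 10614 genes that median was 0.33, with 2746 higher and 136 lower. The step was lower in 5% for 18, against 13.6% of all genes. SRM, the spermidine synthase and a MYC target, fell from 68.1, 72.7 and 79.2 FPKM to 23.4, 21.1 and 21.7 (-1.69, SE 0.113, adjusted p 2.92e-07). POLR1A, the largest subunit of RNA polymerase I, fell from 25.8, 23.1 and 21.5 to 8.24, 8.48 and 3.84. UTP20, WDR43 and MRTO4, nucleolar assembly factors, fell by 1.65, 0.92 and 0.98. MYC had 117.6, 107.8 and 95.2 FPKM and then 92.9, 88.7 and 107.3, which overlap (-0.15, adjusted p 0.239).

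Falls outnumbered rises among mitochondrial ribosomal proteins. Of 75 genes 39 fell and 3 rose in 5% oxygen, where 23.8% and 19% of all genes did. In 21% oxygen 26 fell and 2 rose, against 7.82% and 9.7% of all genes. The medians were -0.35 and -0.30 (0.08 in 21% under TPM, with 10 higher and 3 lower). The 81 tested cytosolic ribosomal proteins, rich in pseudogenes, had medians of 0.21 and -0.56, of which the first turned to -0.01 under TPM and -0.05 under quantile normalization, so no direction is drawn. Of 45 genes of respiratory complex I 6 fell and 0 rose, and of 48 genes of complexes II to V 5 fell and 0 rose. These numbers depended on the scaling: 27 and 21 fell under TPM and 15 and 17 under quantile normalization, so they are not set against the share of all genes. Of 25 genes of the TCA cycle and pyruvate entry 12 fell and 3 rose, where 23.8% and 19% of all genes did. IDH2, the mitochondrial isocitrate dehydrogenase, was one that rose, from 32.3, 30.3 and 27.5 FPKM to 65.3, 76.1 and 77.8. It also rose in 21% oxygen, by 0.47 (adjusted p 0.00739).

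Globin genes fell in 21% oxygen and mostly did not pass in 5%. Of 10 tested, 1 rose (HBE1), 2 fell and 7 did not pass in 5% oxygen, where 19% of all genes rose and 23.8% fell. In 21% oxygen all 10 fell, against 7.82% of all genes. The medians were -0.17 in 5% and -1.34 in 21%. The step was higher in 5% for 7, against 10.9% of all genes, with a median difference of 1.27 (0.67 under TPM). Without replicate 3 of 24 h in 21% oxygen, the shallow library, 9 fell in 21% and the median there was -1.14.

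HBE1, the embryonic epsilon globin, went from 3429, 2790 and 2749 FPKM to 4517, 4739 and 5669 in 5% oxygen and from 3812, 4754 and 6695 to 2179, 2086 and 2455 in 21%. It thus rose by 0.73 (adjusted p 0.00926) and fell by 1.15 (adjusted p 0.00359), groups apart in each case. HBZ, the embryonic zeta globin, fell from 4515, 3865 and 3722 to 2497, 2658 and 2770, by 0.61, and in 21% oxygen by 2.28. HBG1, a fetal gamma globin, had 1157, 941.0 and 933.5 FPKM and then 897.1, 990.7 and 1044, which overlap. HBG1 and HBA1 share most of their sequence with HBG2 and HBA2, so reads may be split between copies.

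Other erythroid genes were mixed. Of 16 heme synthesis genes 5 rose and 8 fell, of 20 red cell membrane genes 3 rose and 10 fell, and of 13 blood transcription factors 4 rose and 6 fell. Among all genes tested 19% rose and 23.8% fell. ALAS2, the first enzyme of erythroid heme synthesis, went from 45.02, 38.6 and 41.7 FPKM to 59.2, 51.2 and 63.6 in 5% oxygen and fell by 1.26 in 21%. Its rise of 0.46 did not pass under TPM, and the difference of steps was 1.73 (SE 0.141, adjusted p 8.01e-06). SLC25A37, an importer of iron into mitochondria, rose by 0.88. RHD, of the Rh blood group, rose by 1.26, and IKZF1, the lymphoid transcription factor Ikaros, fell by 1.13.

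TFRC, the transferrin receptor, had 306.0, 314.5 and 285.5 FPKM and then 387.3, 367.9 and 435.3, a rise of 0.39 (adjusted p 0.0401) that was lost in 9 of the 12 fits that leave out 1 library. FTH1, a ferritin subunit with many pseudogenes, rose by 0.79 and fell in 21% oxygen by 0.47.

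The 6 lowest differences of steps by the naming rule were those of HIST1H1B, HIST1H1E, HIST1H3J, ICMT, ZNF296 and MRPS26. For ZNF296 and MRPS26 the 24 h libraries of 5% oxygen disagreed. For ICMT the 3 d libraries of 5% oxygen and the 24 h libraries of 21% differed more in proportion. ICMT, a methyltransferase of prenylated proteins, had 25.6, 38.8 and 38.5 FPKM and then 19.6, 14.5 and 6.78 in 5% oxygen, and 21.9, 16.0 and 8.26 and then 38.8, 37.9 and 36.1 in 21%. ZNF296 went from 2.57, 6.86 and 7.31 to 1.85, 1.97 and 2.11 FPKM, and MRPS26, of the mitochondrial ribosome, from 30.0, 85.4 and 78.8 to 38.1, 21.2 and 49.4, which overlap. The MRPS26 step in 5% oxygen did not pass (-0.76, adjusted p 0.134).

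Values at the neighbouring times place the step. CA9 had a mean of 12.4 ± 0.855 FPKM (SD, n = 3) at 6 d in 5% oxygen and was listed at 0 in all libraries at 6 h. EGLN3 had means of 7.42, 13.5, 82.9 and 56.6 FPKM at 6 h, 24 h, 3 d and 6 d, and TIMP1 had 233.5, 184.5, 4174 and 2789. SRM stood at 79.4, 73.3, 22.1 and 50.3, and HIST1H1E at 621.7, 522.9, 101.6 and 194.3. KRT8 had 216.4 FPKM at 24 h, 2527 at 3 d and 2657 at 6 d. HBE1 had 3259, 2990, 4975 and 8946 in 5% oxygen and 3450, 5087, 2240 and 1754 in 21%. These levels are given side by side, and the changes to 6 h and 6 d were not tested here.

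**Figure D4:**
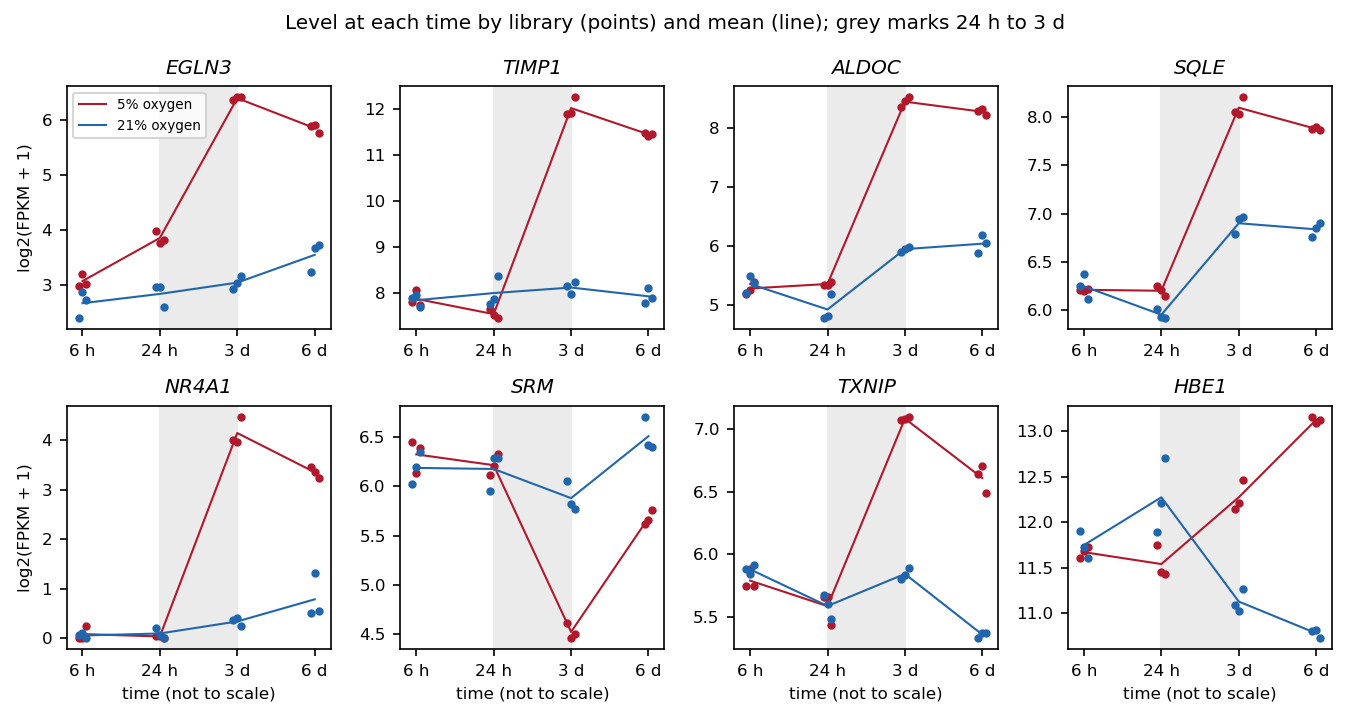
Level of 8 genes as log2(FPKM + 1) at 6 h, 24 h, 3 d and 6 d in 5% (red) and 21% oxygen (blue), with points for libraries, lines for means and grey for the step from 24 h to 3 d. Most of the separation between the oxygen levels arises within the grey interval for EGLN3, TIMP1, ALDOC, SQLE, NR4A1, SRM and TXNIP, and HBE1 crosses over there.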

How the data were processed

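Poly(A)-selected libraries (a Smart-seq2 protocol, per the labels' protocols) were sequenced as read pairs. The deposited gene table holds FPKM made by the authors with TopHat, Cufflinks and Cuffnorm, per the submitters' processing notes. Tool versions, the build and the annotation used were not given in the sources used here. The table holds no counts, so counting error and depth in reads are unknown. FPKM is scaled for library size, so a few abundant genes can shift all others. RNU6-69 alone held 18% of the summed FPKM in replicate 1 of 5% oxygen at 3 d. TPM divides by that sum, while the gene's share of the fragments is unknown. The transcript table was not used here.

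The labels gave the groups. FPKM were taken to log2(FPKM + 1), a pseudocount of 1, for genes with a mean of at least 1 FPKM over the 6 libraries of 5% oxygen. A limma model (limma 3.58.1, R 4.3.3) with 1 mean per group (4 groups, 12 libraries, 8 residual degrees of freedom) and a trended prior gave the 2 steps and their difference, by two-sided moderated tests with Benjamini-Hochberg adjustment over all genes tested. A fold is the ratio of group means in FPKM. The comparison, its members, the gene lists and the naming rule were chosen with earlier results of these data known, so list counts are descriptions, and no test was run on a list.

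Genes were named by rule: the 12 largest rises and 12 largest falls in 5% oxygen that passed with separate groups and a mean of at least 5 FPKM in the higher group, the 6 largest differences of steps each way, up to 4 members of each of 46 lists with the smallest adjusted p, and a fixed set of 32. Short RNA genes were left out of the first 2 parts, and ANGPTL4 (its promoter), LDHB and PMVK stand outside the rule, as do members of lists named only as exceptions. Some genes named by the rule are not described.

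On simulated data with 200 changed genes of 10614 for the 5% step, the procedure recovered 38.7%, 84.2% and 99% of changes of 1.5-fold, 2-fold and 4-fold, and 2.46% to 6.98% of calls were false. The simulated noise was independent between genes, without the differences in depth, background and GC content between the real libraries. Far fewer genes were changed than passed here, so these shares need not hold for the real calls. Replicate numbers did not pair the libraries. Alternatives were another pseudocount, filters, fits on other groups, the replicate block, quantile normalization, TPM, array weights, a fold limit, and leaving out each library. TPM without short RNA genes and a correction for GC content and length, available for 92% of tested genes, were chosen after seeing the data. Promoter windows came from RefSeq (GRCh38.p14), matched by symbol. Python 3.11.15 with matplotlib 3.10.9 drew the figures.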

Additional observations from a re-analysis of the deposited data

Results flagged for a closer look

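The step from 24 h to 3 d differed between 5% and 21% oxygen, by the test of that difference (limma, adjusted p under 0.05), for 95 of the 112 genes with values in the text. The values here are the step in 5% minus the step in 21% oxygen, on the log2(FPKM + 1) scale, so a positive value means a higher step in 5%. Rescaling to TPM lost 8 of these calls (PDK1, SQLE, TRIB3, CDC25C, HIST2H2BE, RHD, B2M and IDH2) and reversed 0. A fit on all 12 groups lost 13, among them VHL, SKP2, PCNA, HIST1H4I and MT1X. The fold limit of 1.5 lost 31. Leaving out single libraries lost at most 2 (VHL and HIST1H3J). Many of the genes were picked for a large step or difference, so their values are not a sample of all genes.

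Among hypoxia-induced genes CA9 stood 4.40 higher, ANGPTL4 3.41, EGLN3 2.33, BHLHE40 2.24 and P4HA2 2.08. P4HA1 was 1.92 higher, BNIP3 1.77, VEGFA 1.71, EPAS1 1.62 and PDK1 1.25, whereas VHL was at -0.58. In glycolysis ALDOC stood 2.06 higher, SLC2A3 1.95, PFKFB4 1.93, ENO2 1.70, LDHA 1.66, PGK1 1.51, TXNIP 1.24 and SLC2A1 1.10. IDH2 was 0.79 higher.

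The secreted, surface and cytoskeletal genes had differences of 4.36 for TIMP1, 4.10 for LINC00659, 3.84 for C19orf77 and 3.78 for PAEP. KRT8 stood at 3.13, TUBA1A at 3.33, KRT18 at 2.68, CD52 at 2.82 and CD3D at 2.00. For immediate early genes the differences were 3.87 for NR4A1, 2.82 for EGR1, 2.67 for FOS, 2.32 for IER3 and 1.91 for KLF10. Stress genes gave 2.89 for DDIT3, 2.47 for GDF15, 1.57 for PPP1R15A, 1.35 for HERPUD1, 1.28 for HSPA5 and 0.85 for TRIB3, and HSPD1 gave -0.66.

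Of the lipid genes HMGCS1 was 1.66 higher, MSMO1 1.52, PLIN2 1.15, IDI1 1.09, DHCR7 1.04 and SQLE 0.95, and CPT1A was at -1.34. Of the globins HBE1 was 1.88 higher, HBZ 1.67, HBG1 1.25 and HBA1 1.22, and of other erythroid and iron genes ALAS2 1.73, FTH1 1.26, SLC25A37 1.17 and RHD 1.16, with IKZF1 at -1.10.

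Cell cycle genes were lower apart from 3. BTG2 stood at 3.72, CDKN1A at 3.18 and CDC25C at 0.63. SKP2 was at -1.62, CCND2 at -1.45, CDK6 at -1.41, GINS1 at -1.03, MCM4 and CENPF at -0.77, RFC3 at -0.76, CDK4 at -0.54 and PCNA at -0.52. Among the histones HIST1H1B was at -3.01, HIST1H1E at -2.96, HIST1H3J at -2.65, HIST1H4I at -2.17 and HIST1H1D at -1.49, while HIST1H1C was at 0.97 and HIST2H2BE at 0.87. Ribosome biogenesis genes were at -1.85 for POLR1A, -1.51 for UTP20, -1.39 for SRM, -0.78 for WDR43 and -0.59 for MRTO4. ICMT was at -2.69, ZNF296 at -2.62 and MRPS26 at -2.48.

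Of the remaining groups the metallothioneins MT2A, MT1X and MT1G stood 3.65, 3.32 and 2.76 higher and OSGIN1 2.77. SQSTM1 was 2.30 higher, CTSL1 2.22, ISG20 2.04, CD9 1.99, NEAT1 1.62, GP6 1.33 and B2M 0.71.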

How the results depend on the processing

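In the 5% step the count of 4537 stayed within 1.5 times under all alternatives but 2, a fit on all 12 groups (2807) and a fold limit of 1.5 (657). Leaving out single libraries gave 3662 to 5212. The split moved toward falls under TPM (1191 higher and 3457 lower, or 1422 and 2848 with short RNA genes left out of the total). Rises outnumbered falls with no filter (2707 against 2307) and with the fold limit (520 against 137). Which direction held more genes in the 5% step was thus not the same under all settings. The count in 21% oxygen was less steady, 580 to 2513 with single libraries left out. It was 987 with no filter, 1137 in the fit on 12 groups, 3136 in that fit without the shallow library of 1% oxygen, 1030 in the fit on the 2 groups alone, 2882 under TPM, 4422 with array weights and 28 with the fold limit. Under TPM 2746 of its genes were higher and 136 lower, and with short RNA genes left out of the total 2559 and 216, whereas the GC and length correction gave 892 and 1156. The difference of steps held 1755 to 3210 genes with single libraries left out. It held 1590 in the fit on 12 groups, 3935 without the shallow library of 1% oxygen, 5198 under TPM, 4490 under TPM without short RNA genes, 5045 with array weights and 253 with the fold limit. The cause of these shifts was not tested.

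Of the 112 genes with values in the text, 103 passed in the 5% step. TPM lost ALAS2 and TFRC, the fit on 12 groups lost VHL, SKP2, PCNA, MT1X, ZNF296 and PMVK, the fold limit lost 25, and fits that leave out 1 library lost at most 3 (HBZ, TFRC and ZNF296). None of the 103 changed direction under these alternatives. The median of the list of cytokine receptors and STAT5 targets in the 5% step, 0.16, became -0.134 with a mean of at least 5 FPKM.

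With the replicate number as a block, 4448 genes passed in the 5% step, 1609 in 21% oxygen and 2493 for the difference. Libraries with the same number did not deviate together (r of -0.192, -0.0166 and -0.111 in 5% oxygen and 0.0129, 0.115 and 0.125 in 21%), so the numbers do not pair them. Without counts, no interval for counting error could be given, and genes near 1 FPKM are the least certain.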

Other observations

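Further gene groups are set here beside all genes tested, of which 19% rose and 23.8% fell in the 5% step. Of 33 lysosome and autophagy genes 14 rose and 2 fell (CTSA and ATP6V1A), with a median of 0.31 against 0.11 in 21% oxygen. The difference was higher in 5% for 10 and lower for 1, with a median of 0.22 that turned to -0.34 under TPM (5 higher and 10 lower). SQSTM1, a receptor of selective autophagy, went from 50.7, 45.1 and 42.3 FPKM to 3 d levels with a mean of 213.0 (SD 20.0, n = 3). CTSL1, a lysosomal protease, went from 61.0, 56.2 and 48.9 to 228.3, 236.8 and 281.2, with no overlap in either case. Both lay between 48.6 and 86.7 FPKM in the 24 h and 3 d libraries of 21% oxygen. Of 21 tested interferon response genes 10 rose and 0 fell. That count fell to 6 without replicate 3 of 3 d, and the GC and length correction gave 6 higher and 1 lower, nearer the share of all genes. Among those that rose were the RNase ISG20, by 2.59, and B2M, the light chain of HLA class I, by 0.68.

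Of 7 tested metallothionein and zinc response genes 3 rose and 4 did not pass. Metallothioneins bind zinc and copper. MT1G was listed at 0 in all 3 libraries at 24 h and in all of 21% oxygen, and stood at 3.36, 7.72 and 7.13 FPKM at 3 d. MT2A went from 21.0, 19.4 and 14.6 FPKM to 81.2, 72.1 and 167.9 and fell in 21% oxygen by 1.26. MT1X rose by 2.11. These genes are short and alike in sequence, so their reads may be shared. Of 22 genes of the NRF2 and antioxidant list 8 rose and 2 fell (CAT and SOD2), where 19% and 23.8% of all genes did. Under TPM 5 rose and 5 fell, and the median of 0.03 turned to -0.19. OSGIN1, an oxidative stress gene, rose by 2.36.

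Of 15 megakaryocyte and platelet genes 5 passed the filter and 3 rose. GP6, the collagen receptor of platelets, went from 5.47, 5.79 and 4.39 FPKM to 25.5, 25.9 and 26.8. ITGA2B, an integrin of platelets, and the tetraspanin CD9 rose by 1.29 and 2.17, to at most 3.75 and 5.34 FPKM. The nuclear RNA NEAT1 rose from 9.01, 8.57 and 9.56 FPKM to 19.4, 20.1 and 23.2, while MALAT1 had 191.5, 164.2 and 165.9 and then 237.3, 219.4 and 119.7, which overlap. In 21% oxygen GP6 and ITGA2B also rose, by 0.80 and 0.61 (adjusted p 0.00107 and 0.0291). NEAT1 fell there by 0.50 (adjusted p 0.0237).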
